A study of Mus musculus with 18 samples.

Results

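The genes described here are the nuclear-encoded genes of oxidative phosphorylation, read in sorted NK cells, ILC1 and macrophages of mouse livers carrying MC38 colon adenocarcinoma metastases. Members were chosen by symbol alone. They are the protein-coding genes whose symbol starts with Nduf, Uqcr, Cox4, Cox5, Cox6, Cox7, Cox8 or Atp5, together with Sdha, Sdhb, Sdhc, Sdhd, Cyc1 and Cycs. This rule gave 100 of the 21770 protein-coding genes of the GENCODE vM39 annotation: 40 subunits grouped with complex I, 8 assembly factors of complex I, 4 genes of complex II, 9 of complex III, 19 of complex IV, 19 of complex V and cytochrome c.

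Oxidative phosphorylation is the last stage of respiration in mitochondria. Complex I (NADH dehydrogenase) and complex II (succinate dehydrogenase) pass electrons to ubiquinone, complex III passes them to cytochrome c, and complex IV (cytochrome c oxidase) passes them to oxygen. Complexes I, III and IV pump protons, and complex V (ATP synthase) uses the proton gradient to make ATP. A small set of core subunits is encoded in mitochondrial DNA, and all other subunits come from nuclear genes such as these. Resting lymphocytes and alternatively activated macrophages are known to rely on this pathway, while acute activation shifts both cell types towards glycolysis.

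All cells came from young adult female C57BL/6J mice in which MC38 cells, a colon adenocarcinoma line of this strain, had been injected into the spleen. The labels give no genetic modification for any group. Type 1 innate lymphocytes formed 4 groups of 3 libraries: MFL NK cells (CD49a- CD49b+) and MFL ILC1 (CD49a+ CD49b-) from the metastasis-free liver (MFL), and, from the liver metastases (LM), LM CD49a- NK cells with the phenotype of the MFL NK cells and a second subset, LM CD49a+ NK cells, that carried both CD49a and CD49b. Each was sorted as lin- CD45+ NKp46+ cells from pools of 6 to 8 samples. For the LM CD49a+ subset the sample titles say ILC1 where the population label says NK cells, and the label was followed. Metastasis-associated macrophages (MAMs), sorted as CD45+ CD11b+ cells of metastases, formed 2 groups of 3 libraries, F4/80high and F4/80low.

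The lymphocyte libraries held 8795721 to 14386834 counts and were made from total RNA, and the MAM libraries held 21278959 to 32267015 counts and were made from poly(A) RNA, so levels are not compared between the 2 experiments. MFL tissue was mechanically dissociated and LM tissue was digested with enzymes, so site and dissociation cannot be told apart in any comparison of MFL with LM. The 4 NK markers summed to 1427 to 2911 CPM over the lymphocyte libraries. The 5 ILC1 markers summed to 1557 to 1573 CPM in MFL ILC1, to 179 to 266 CPM in the CD49a+ subset of the LM and to 26.1 to 68.5 CPM in the other 2 groups. LM CD49a- NK libraries 1 and 2 had the lowest detection, with 24.8% and 26.2% of the genes tested listed at 0. LM CD49a+ NK libraries 1 and 3 followed with 18.4% and 20.5%. The share was 9.34% in LM CD49a+ library 2, 6.47% in LM CD49a- library 3 and 1.56% to 13.2% in the MFL libraries. In these bulk samples fewer cells of a type and less RNA per cell cannot be told apart.

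The members took 0.274% to 0.577% of the protein-coding counts in the lymphocyte libraries and 0.688% to 0.847% in the MAM libraries. In the lymphocytes the ranges of all 4 groups overlapped. In the MFL it was 0.520%, 0.444% and 0.351% for NK cells and 0.342%, 0.397% and 0.496% for ILC1. In the LM it was 0.274%, 0.384% and 0.392% for the CD49a- subset and 0.577%, 0.523% and 0.370% for the CD49a+ subset. The share was 0.827%, 0.847% and 0.688% in F4/80high MAMs and 0.764%, 0.699% and 0.729% in F4/80low MAMs, and these groups overlapped too.

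**Figure D1:**
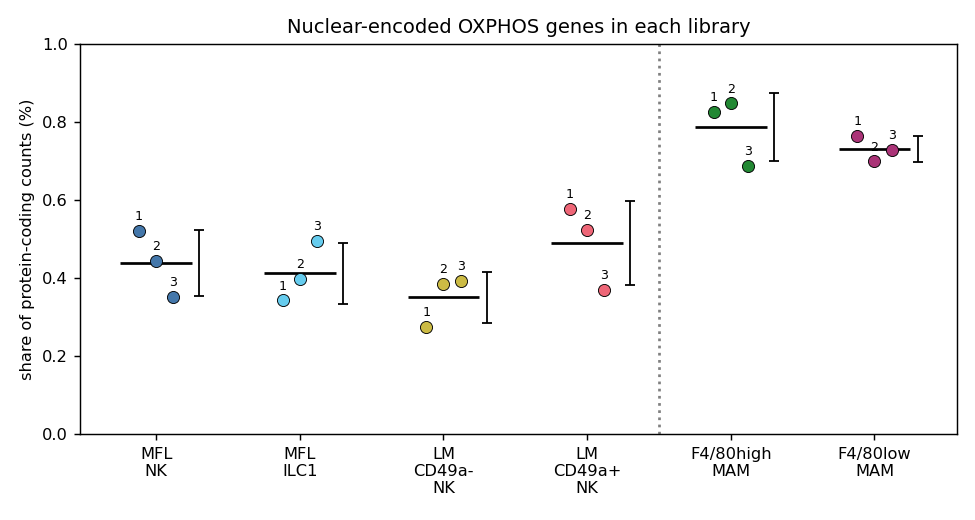
Share of protein-coding counts taken by the nuclear-encoded oxidative phosphorylation genes, in %, in each library (points, with the replicate number) of the 6 groups; lines are means and bars are ± SD (n = 3 libraries). The dotted line separates 2 experiments with different library kits, and within each experiment the groups overlap.

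In the MAMs, ATP synthase and cytochrome c oxidase genes had the highest levels per kilobase of transcript, the scale on which genes are compared with each other. Atp5f1b, the catalytic beta subunit of ATP synthase, led in both subsets, with 377 ± 32.01 CPM per kb in F4/80high and 360 ± 15.0 in F4/80low MAMs (SD, n = 3). Cox4i1, Cox8a and Cox6a1, ubiquitous subunits of cytochrome c oxidase, followed with 290 ± 30.01, 273 ± 20.6 and 273 ± 27.6 CPM per kb in F4/80high MAMs. The spreads of these 3 genes overlapped, so their order is not resolved. These levels rest on the canonical transcript, and with the longest one Atp5f1b still led, while 5 or 6 of the first 10 members were shared.

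F4/80high and F4/80low MAMs, compared to see how these subsets differ, had similar levels of most members. All 93 members listed for the MAMs were tested. Of these, 14 rose and 12 fell in F4/80high relative to F4/80low MAMs at an adjusted p under 0.1 in edgeR's quasi-likelihood test. That is 28.0% of the members, while 54.9% of all 13759 genes were called in this comparison, 27.8% higher and 27.1% lower. The median log2 fold change was -0.01 over the members and 0.01 over all genes, and the median size of the change was 0.158 against 0.391. The member median had no stable sign, with -0.09 to 0.05 when 1 library was left out and 0.08 with upper-quartile scaling.

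14 members were higher in every F4/80high library than in every F4/80low library and 13 were lower, while 29.8% and 28.6% of all genes were separated in this way. Upper-quartile scaling in place of TMM gave 21 higher and 6 lower members. Leaving out 1 library at a time gave 6 to 19 higher and 6 to 17 lower members. F4/80high library 3 was the lowest of the 6 libraries for 59 of the 93 members and the highest for 0, and F4/80low library 2 was the lowest for 22. Without F4/80high library 3 the count was 19 higher and 7 lower, without F4/80low library 2 it was 7 and 17, without F4/80high library 1 it was 6 and 13, without F4/80high library 2 it was 9 and 12, and without F4/80low library 1 or 3 it was 9 and 6. 12 of the 26 called members passed the threshold under all 13 alternatives that kept this threshold, and these were Cox6a2, Cox4i2, Cox6b2, Cox7a2l, Atp5mc2, Ndufa4, Ndufa6, Ndufa12, Ndufb1, Ndufaf2, Uqcrh and Uqcrfs1. The other 14 lost the call in 2 to 5 of the 6 fits that left out a library, and 6 of them, all lower, also lost it with upper-quartile scaling. On the same strand, 6 called members overlap another annotated gene: Ndufb2, a protein-coding gene, Ndufc1 and Ndufc2, processed pseudogenes, Ndufaf2 and Cox7a2l, long noncoding RNAs, and Atp5mc2, a microRNA gene. On either strand 69 members overlap another gene, among them Cox6a2, which overlaps the protein-coding Itgad on the opposite strand. The part of these overlaps in the values was not tested.

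**Figure D2:**
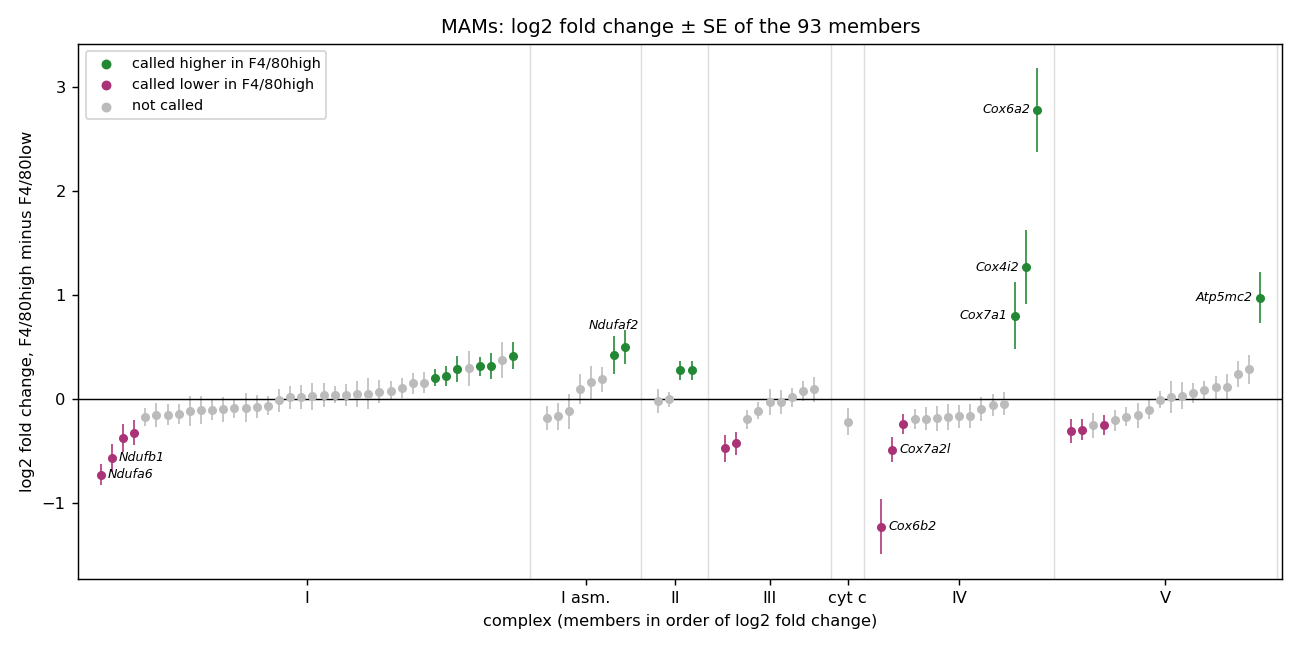
Log2 fold change of each of the 93 members between F4/80high and F4/80low MAMs (y axis, bars ± SE of the fit, 3 libraries a group), ordered within each complex (x axis). Most members lie near 0, while Cox6a2 at 2.78 and Cox6b2 at -1.22 lie furthest from it.

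The widest differences were in genes with a low level whose products replace a ubiquitous subunit. Cox6a2 (chr7:127804607-127805559, GRCm39, minus strand), the heart and muscle isoform of a cytochrome c oxidase subunit, had 1.53, 1.49 and 1.297 CPM in F4/80high MAMs. In F4/80low MAMs it had 0.131, 0.307 and 0.173 CPM, from 4 to 9 counts a library. Every F4/80high library was above every F4/80low library, and Cox6a2 rose by 2.78 ± 0.40 on the log2 scale (SE; edgeR, adjusted p = 0.000725). Its ubiquitous partner Cox6a1 was at 138 to 167 CPM in F4/80high and 146 to 171 CPM in F4/80low MAMs, and these ranges overlapped.

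Cox4i2 (chr2:152595625-152606959, plus strand), an isoform of subunit 4 known from lung and from hypoxic cells, followed the same direction. It had 0.855, 1.20 and 1.04 CPM in F4/80high and 0.460, 0.307 and 0.519 CPM in F4/80low MAMs, with no overlap. Its log2 fold change was 1.27 ± 0.36 (SE; edgeR, adjusted p = 0.0186). The ubiquitous Cox4i1 was at 200 to 244 CPM in F4/80high and 229 to 268 CPM in F4/80low MAMs and did not pass the test.

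Cox7a1 (chr7:29883569-29885503, plus strand), the heart and muscle isoform of subunit 7a, had 1.71, 1.03 and 1.39 CPM in F4/80high and 0.887, 0.683 and 0.778 CPM in F4/80low MAMs. The groups did not overlap, and it rose by 0.81 ± 0.32 on the log2 scale (SE; edgeR, adjusted p = 0.0715). This call was kept in only 1 of the 6 fits that left out a library, the one without F4/80high library 2, and adjusted p reached 0.206. Cox7a2, the form present in most tissues, had 39.0 to 48.9 CPM in F4/80high and 44.3 to 49.9 CPM in F4/80low MAMs and did not pass the test.

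Cox6b2 (chr7:4754789-4756093, minus strand), the testis isoform of subunit 6b, went the other way. It had 1.22, 1.275 and 1.62 CPM in F4/80high and 3.58, 2.49 and 3.59 CPM in F4/80low MAMs, with no overlap, and it fell by 1.22 ± 0.27 on the log2 scale (SE; edgeR, adjusted p = 0.00587). Cox6b1, the ubiquitous form, was at 78.4 to 102 CPM against 89.6 to 107 CPM and did not pass the test.

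Promoters are shown so that the rare and the ubiquitous gene can be read side by side. This holds for Cox7a1 with Cox7a2 and for Cox6b2 with Cox6b1. Cox6a1 and Atp5mc2 are shown without a partner, and the windows of Atp5mc1 and Atp5mc3 are not shown. Each stretch is 300 bases, 250 before and 50 after the transcription start, from RefSeq (GRCm38.p6, with coordinates of that build), written 5′ to 3′ on the strand of the gene. Capitals mark the full consensus of NRF1, a factor known to bind promoters of respiratory genes, and the inner letters of that consensus are CGCATGCG. Cox6a2, Cox4i2 and Cox4i1 had no entry. The positions are chr7:30183921-30184220 for Cox7a1, chr9:79759804-79760103 for Cox7a2, chr7:4753045-4753344 for Cox6b2, chr7:30626065-30626364 for Cox6b1, chr5:115348909-115349208 for Cox6a1 and chr15:102670998-102671297 for Atp5mc2, all but Cox7a1 on the minus strand.
Cox7a1: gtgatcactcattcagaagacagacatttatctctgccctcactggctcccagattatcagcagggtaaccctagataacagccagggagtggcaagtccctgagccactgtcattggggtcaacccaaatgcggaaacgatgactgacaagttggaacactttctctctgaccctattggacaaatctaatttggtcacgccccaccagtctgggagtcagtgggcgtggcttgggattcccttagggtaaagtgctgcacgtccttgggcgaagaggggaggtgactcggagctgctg
Cox7a2: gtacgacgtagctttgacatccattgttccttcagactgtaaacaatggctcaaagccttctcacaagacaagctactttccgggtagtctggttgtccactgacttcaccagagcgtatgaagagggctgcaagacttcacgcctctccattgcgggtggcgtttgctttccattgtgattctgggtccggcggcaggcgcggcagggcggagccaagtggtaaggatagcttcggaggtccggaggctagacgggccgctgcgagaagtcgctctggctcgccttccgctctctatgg
Cox6b2: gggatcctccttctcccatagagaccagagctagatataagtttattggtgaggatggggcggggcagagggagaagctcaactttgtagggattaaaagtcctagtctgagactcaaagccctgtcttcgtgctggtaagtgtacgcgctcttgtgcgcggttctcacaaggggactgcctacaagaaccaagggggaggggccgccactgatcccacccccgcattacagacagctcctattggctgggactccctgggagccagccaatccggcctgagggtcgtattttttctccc
Cox6b1: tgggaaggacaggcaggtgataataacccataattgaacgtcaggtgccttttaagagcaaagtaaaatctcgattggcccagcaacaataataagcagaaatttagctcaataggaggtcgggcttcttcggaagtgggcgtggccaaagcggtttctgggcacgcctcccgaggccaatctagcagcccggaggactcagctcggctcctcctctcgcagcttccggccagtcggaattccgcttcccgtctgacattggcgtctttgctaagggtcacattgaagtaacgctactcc
Cox6a1: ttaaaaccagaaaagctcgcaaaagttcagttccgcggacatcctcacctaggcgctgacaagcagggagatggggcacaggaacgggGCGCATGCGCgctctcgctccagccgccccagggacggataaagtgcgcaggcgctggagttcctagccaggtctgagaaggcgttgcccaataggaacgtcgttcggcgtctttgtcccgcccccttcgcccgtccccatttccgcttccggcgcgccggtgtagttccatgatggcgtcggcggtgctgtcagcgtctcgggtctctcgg
Atp5mc2: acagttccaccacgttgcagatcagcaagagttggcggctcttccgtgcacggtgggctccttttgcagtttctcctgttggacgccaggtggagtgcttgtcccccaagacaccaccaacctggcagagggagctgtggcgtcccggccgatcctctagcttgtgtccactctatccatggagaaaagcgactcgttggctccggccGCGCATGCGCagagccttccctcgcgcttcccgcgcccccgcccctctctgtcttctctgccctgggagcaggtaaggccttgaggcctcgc
Among these 6 windows the NRF1 letters stood in Cox6a1 and in Atp5mc2. The GC content was 53.0% in Cox7a1, 56.7% in Cox7a2, 55.7% in Cox6b2, 53.0% in Cox6b1, and 63.0% in Cox6a1 and in Atp5mc2.

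A promoter was held for 77 of the 100 members. The full NRF1 consensus, which reads the same on both strands, stood in 7 of these 77 (9.09%) and in 1.07% of all 27025 genes with a promoter. The inner letters CGCATGCG, which every full match also holds, stood in 12 members (15.6%) against 2.07% of all genes. The letters AAGATGGC of YY1, searched on both strands like the next motifs, stood in 11 members (14.3%) against 3.19%, among them Atp5pb, Ndufa9, Ndufb8 and Ndufs7. CCGGAAGT, the core bound by ETS factors such as GABPA, stood in 5 members (6.49%) against 4.31%, namely Atp5pd, Cox8a, Ndufs3, Uqcr11 and Uqcrh, and TCAAGGTCA of the estrogen-related receptor alpha stood in 2 (2.6%), Atp5mc3 and Sdhd, against 0.466%. The median GC content was 58.5% over the windows of the members and 52.7% over all windows. The match of letters is a description of the windows, and binding was not measured.

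**Figure D3:**
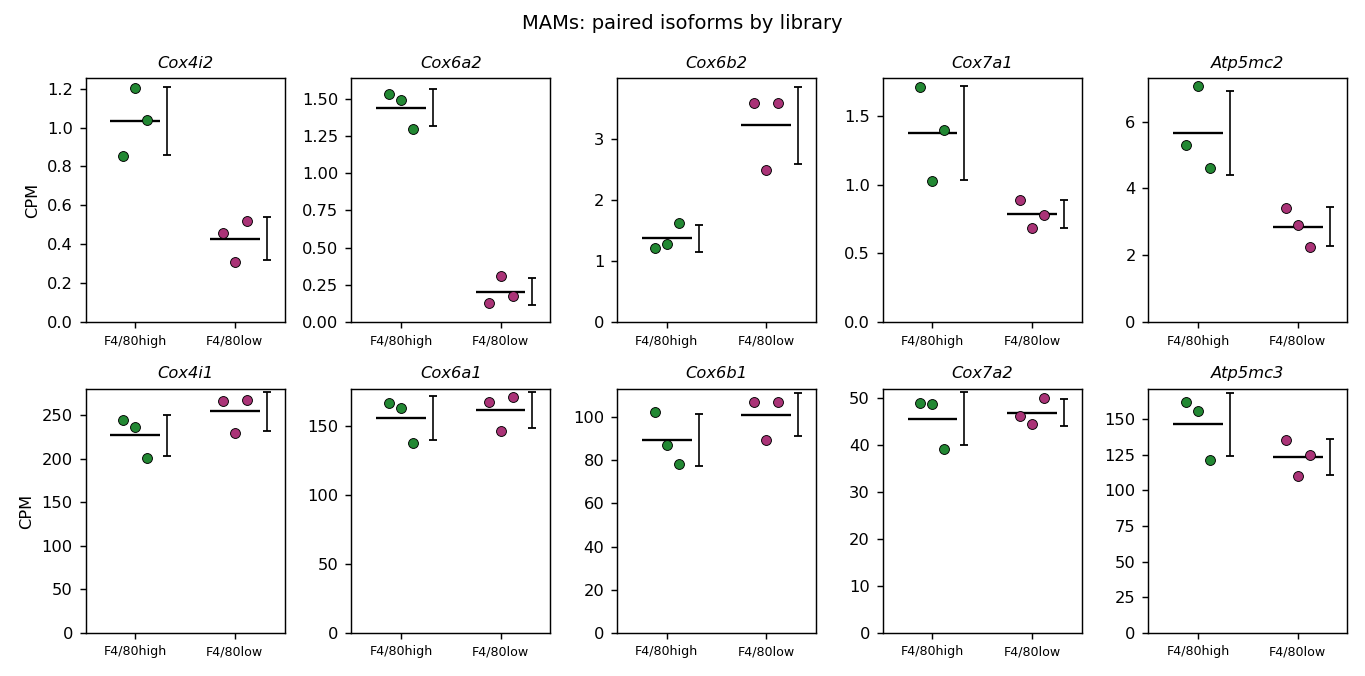
Levels in CPM of 5 members called between the MAM subsets (top) and of an isoform of each (bottom) in the 3 F4/80high and 3 F4/80low libraries (points); lines are means and bars ± SD, and the y axes differ in scale. The groups are separated in each top panel, at 0.131 to 7.05 CPM, and overlap in each bottom panel.

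Complex V was nearly level between the subsets, with summed levels of 3001, 2993 and 2521 CPM in F4/80high and 2965, 2668 and 2861 CPM in F4/80low MAMs. Of its 18 members, 1 rose and 3 fell (22.2% called, against 54.9% of all genes). Atp5mc2, which encodes the c subunit of the proton-driven ring, had 5.31, 7.05 and 4.61 CPM in F4/80high and 3.41, 2.90 and 2.25 CPM in F4/80low MAMs and rose by 0.98 ± 0.24 on the log2 scale (SE; edgeR, adjusted p = 0.0110). Atp5mc1 and Atp5mc3, which encode the same mature c subunit, were far more abundant, at 79.5 to 102 and 121 to 162 CPM in F4/80high MAMs, and neither passed the test. The members that fell were Atp5f1e, Atp5mg and Atp5pd, small subunits of the enzyme, by 0.24 to 0.30 on the log2 scale. The F1 subunits Atp5f1a and Atp5f1b, the stalk subunit Atp5pb and the ATPase inhibitor Atp5if1 did not pass the test, with Atp5if1 at 87.7, 82.3 and 62.7 CPM against 67.0, 55.2 and 68.2 CPM.

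Complex I members moved in both directions. Of the 38 subunits tested, 6 rose and 4 fell, which is 26.3% called, against 54.9% of all genes. The 7 core subunits carry the flavin and the iron-sulfur clusters or help hold them. They included 0 called members by edgeR and 0 at an unadjusted p under 0.05. Their log2 fold changes lay between -0.17 and 0.16. None of the 10 called members was a core subunit. Ndufa6, an accessory subunit of the LYR family (chr15:82234340-82238523, GRCm39), had 40.3, 43.3 and 37.3 CPM in F4/80high and 71.1, 59.2 and 69.3 CPM in F4/80low MAMs. The groups were well apart, and it fell by 0.72 ± 0.10 on the log2 scale (SE; edgeR, adjusted p = 0.000626), the lowest adjusted p of the members.

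Ndufb1, a small accessory subunit of the membrane arm, had 40.7, 37.6 and 29.0 CPM in F4/80high and 57.6, 48.1 and 52.3 CPM in F4/80low MAMs, and it fell by 0.56 ± 0.13 on the log2 scale (SE; edgeR, adjusted p = 0.00919). Ndufb3 and Ndufa1 also fell, by 0.37 and 0.32. Among the subunits that rose, Ndufa12, which joins the complex late in its assembly, had 50.1, 50.9 and 37.1 CPM against 35.7, 32.6 and 34.7 CPM, a log2 fold change of 0.42 ± 0.13 (SE; edgeR, adjusted p = 0.0254). Ndufa4, grouped here by its symbol although its product is a subunit of cytochrome c oxidase, had 54.1, 59.8 and 48.5 CPM against 42.1, 43.9 and 44.4 CPM, a log2 fold change of 0.32 ± 0.09. Ndufab1, the mitochondrial acyl carrier protein, rose by 0.33, Ndufc1 by 0.29, Ndufb2 by 0.22 and Ndufc2 by 0.21. In the 6 fits that left out a library, Ndufab1, Ndufb2 and Ndufc2 kept the call in 1 and Ndufc1 in 2, and Ndufb2 and Ndufc1 also lost it with the replicate number as a block.

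Of the 8 assembly factors of complex I, 2 rose and 0 fell by edgeR's adjusted p (0 fell at an unadjusted p under 0.05 as well). That is 25% called, against 54.9% of all genes, of which 27.8% rose. Ndufaf2 had 7.70, 8.64 and 6.55 CPM in F4/80high and 5.55, 5.12 and 5.49 CPM in F4/80low MAMs, a log2 fold change of 0.50 ± 0.16 (SE; edgeR, adjusted p = 0.0344). Ndufaf6 had 5.31, 6.13 and 5.16 CPM against 4.24, 4.54 and 3.55 CPM, and its call was kept in 1 of the 6 fits that left out a library. Ndufaf1 and Ndufaf4, which act on intermediates of the membrane arm and of the complex, did not pass the test.

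The 4 genes of succinate dehydrogenase did not move together. Sdhb, the iron-sulfur subunit, had 126, 117 and 106 CPM in F4/80high and 102, 89.9 and 95.8 CPM in F4/80low MAMs. Sdhc, a membrane anchor, had 115, 115 and 102 CPM against 98.7, 83.3 and 92.0 CPM. Neither gene overlapped between the subsets, and both rose by 0.28 ± 0.09 on the log2 scale (SE; edgeR, adjusted p = 0.0363 for Sdhb and 0.0382 for Sdhc). Both calls were lost without F4/80high library 1 or without F4/80low library 2, where adjusted p reached 0.142 for Sdhb and 0.123 for Sdhc. Sdha, the flavoprotein subunit, had 207, 208 and 202 CPM against 212, 203 and 203 CPM, and Sdhd, the other anchor, overlapped between the subsets as well.

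In complex III, 2 of 9 members fell and 0 rose by edgeR (0 at an unadjusted p under 0.05). That is 22.2% called, against 54.9% of all genes, of which 27.1% fell. Uqcrfs1, the Rieske iron-sulfur protein, had 76.2, 74.6 and 62.8 CPM in F4/80high and 105, 86.3 and 95.0 CPM in F4/80low MAMs, and it fell by 0.42 ± 0.11 on the log2 scale (SE; edgeR, adjusted p = 0.0124). Uqcrh, the hinge protein beside cytochrome c1, had 70.5, 70.7 and 56.6 CPM against 94.8, 77.2 and 102 CPM and fell by 0.47 ± 0.13 (adjusted p = 0.0176). Both genes were lower in every F4/80high library. The core proteins Uqcrc1 and Uqcrc2, cytochrome c1 (Cyc1) and cytochrome c itself (Cycs) did not pass the test, with Cycs at 65.0, 77.0 and 55.0 CPM against 81.9, 77.7 and 69.0 CPM.

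In complex IV, the 3 members that rose were the isoforms Cox6a2, Cox4i2 and Cox7a1, and the 3 that fell were Cox6b2, Cox7a2l and Cox7b. They were 40% of its 15 members, while 54.9% of all genes were called. Cox7a2l, known as a factor that joins complexes III and IV into supercomplexes, had 160, 122 and 142 CPM in F4/80high and 217, 176 and 198 CPM in F4/80low MAMs. Its groups did not overlap, and it fell by 0.48 ± 0.12 on the log2 scale (SE; edgeR, adjusted p = 0.0115). Cox5a, Cox5b, Cox6c and Cox8a did not pass the test, and 12 of the 15 complex IV members had a log2 fold change below 0. The summed level of complex IV was 1361, 1273 and 1117 CPM in F4/80high and 1516, 1289 and 1476 CPM in F4/80low MAMs, which overlapped.

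The marker lists differed between the MAM subsets in the same libraries. The 7 macrophage markers summed to 12628 to 15731 CPM in F4/80high and 4457 to 5114 CPM in F4/80low MAMs, the 5 classical monocyte markers to 452 to 574 against 2062 to 2285 CPM, and the 4 dendritic cell markers to 6.42 to 9.23 against 186 to 288 CPM. The 4 hepatocyte markers listed summed to 363 to 727 CPM in F4/80high and 213 to 244 CPM in F4/80low MAMs, and the 1 tumor epithelium marker listed was at 0.162 to 0.360 against 7.70 to 17.2 CPM. No listed marker of these types was at 0 in a subset. Their part in the differences of the members was not tested.

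Genes encoded in mitochondrial DNA, which give the core subunits of complexes I, III, IV and V, were also measured. Of 13, 10 rose in F4/80high MAMs and 0 fell by edgeR (0 at an unadjusted p under 0.05), with a median log2 fold change of 0.44, and mt-Cytb had the lowest adjusted p among them, with a log2 fold change of 0.57 ± 0.10 (SE; edgeR, adjusted p = 0.00211). The called genes were 76.9% of the 13, against 54.9% of all genes, of which 27.8% rose. Together the 13 took 1.47% to 1.70% of all counts in F4/80high and 1.02% to 1.19% in F4/80low MAMs. The libraries of both subsets were made from poly(A) RNA, and the cause of this rise was not tested.

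Genes that serve the pathway from outside its complexes also split. Of 40 other assembly genes, 7 rose and 5 fell (30% called, against 54.9% of all genes). Those that fell were Cox17, the copper chaperone of cytochrome c oxidase, Cox14, Higd2a, Sdhaf1 and Sdhaf2, with Cox17 lowest at -0.90 ± 0.15 on the log2 scale. Of 17 genes of the citrate cycle and pyruvate dehydrogenase, which supply NADH and succinate, 2 rose and 5 fell (41.2% called). Idh2, the mitochondrial NADP-dependent isocitrate dehydrogenase, rose by 0.90 ± 0.09 and Suclg2 by 0.62 ± 0.08, while Mdh2, the mitochondrial malate dehydrogenase, fell by 1.02 ± 0.11, Fh1 by 0.58 ± 0.09, Cs by 0.34 ± 0.08, Dlst by 0.25 ± 0.08 and Idh3g by 0.22 ± 0.10 (log2 ± SE).

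Of 13 regulators of mitochondrial biogenesis, Twnk, Polrmt and Polg, which replicate or transcribe mitochondrial DNA, rose by 0.51, 0.28 and 0.24 on the log2 scale, and Esrra, which encodes the estrogen-related receptor alpha, fell by 0.43 ± 0.08 (SE; edgeR, adjusted p = 0.00203). The 4 called regulators were 30.8% of the 13, while 54.9% of all genes were called. Of 78 mitochondrial ribosomal protein genes, 13 rose and 5 fell (23.1% called), the latter being Mrpl14, Mrpl30, Mrpl33, Mrpl52 and Mrps21. Of 76 cytosolic ribosomal protein genes 60 fell and 0 rose (0 at an unadjusted p under 0.05), with a median of -0.35. That is 78.9% called, where 27.1% of all genes fell. The genes of these lists that are named were chosen after their values were seen.

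In the lymphocytes, 89 of the 100 members passed the filter on low counts. The members that did not were Cox4i2, Cox6a2, Cox6b2, Cox7a1, Cox7b2, Cox8b, Cox8c, Ndufa4l2, Ndufb11b, Cox5b-ps and a second annotated entry of Atp5po. 8 of these were listed at 0 in all 12 libraries. Cox6a2 had 8, 5 and 12 counts in MFL NK cells, 18 counts in LM CD49a- NK library 3 and at most 5 in each other library, Cox7a1 had 15 counts in MFL ILC1 library 3 alone, and Cox6b2 had at most 5 in any library. At these depths the rare isoforms that differed between the MAM subsets could not be compared between the lymphocyte groups.

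Per kilobase, Atp5f1a, Cox6c, Atp5pd, Cox4i1 and Atp5f1b were the 5 highest members in all 4 lymphocyte groups, in different orders, when the canonical transcript set the length. With the longest transcript the highest member was another one in 3 of the 4 groups, and 7 or 8 of the first 10 were shared. Atp5f1a, the alpha subunit of ATP synthase, had 160 ± 20.8 CPM per kb in MFL NK cells and 142 ± 5.17 in MFL ILC1 (SD, n = 3). In the LM it had 146 ± 37.9 CPM per kb in the CD49a- and 197 ± 19.4 in the CD49a+ subset. Cox6c, a small subunit of cytochrome c oxidase, had 179 ± 47.2, 235 ± 55.6, 212 ± 57.1 and 190 ± 59.3 CPM per kb, with the groups in that order. Within each group the spreads of these 2 genes overlapped, except in MFL ILC1.

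0 of the 89 members passed the test in any of the 6 lymphocyte comparisons by edgeR. The comparisons share groups, and they asked how site, sorted subset and their interaction relate to the members. The share of all 13594 genes called was low too, and the standard error of a member's log2 fold change had a median of 0.68 in the 5 comparisons of 2 groups.

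LM CD49a+ NK cells had the higher values of most members relative to LM CD49a- NK cells, the comparison of the NK subsets of metastasis, but no member passed the test. The median log2 fold change was 0.46 over the members and 0.01 over all genes, and 71 of 89 members were above 0. LM CD49a+ library 1 was the highest of the 12 libraries for 32 members, and LM CD49a- library 1 was the lowest for 35. The member median was 0.27 without the former, 0.79 without LM CD49a- library 3, and 0.27 without LM CD49a- libraries 1 and 2 together. 0 were called by edgeR, where 0.14% of all genes were. At an unadjusted p under 0.05 there were 8 higher and 1 lower member, which is 9 of 89, while 11.6% of all genes passed that limit. 10 members were higher in every LM CD49a+ library than in every LM CD49a- library and 0 were lower, while 5.72% of all genes were higher and 4.1% were lower in this way.

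DESeq2 called 4 of 89 members higher in this comparison (Ndufv3, Ndufaf1, Cox7a2 and Uqcr10), where it called 3.99% of all genes. Without the low-count filter edgeR called 2 of 92 (Ndufv3 and Ndufb10), where 0.91% of all genes were called. Limma-voom called 0 members and 0 genes. Without LM CD49a- NK library 3, this group rests on the 2 libraries with the most genes at 0. There edgeR called 5 members (Ndufv3, Uqcr10, Cox7c, Atp5mc2 and Atp5pb) and 1.86% of all genes. Without those 2 libraries it called 0, and the lone remaining library was assumed to vary like the others.

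Ndufv3, an accessory subunit of the NADH-binding module of complex I, had 64.7, 48.3 and 67.0 CPM in LM CD49a+ and 4.23, 16.7 and 30.3 CPM in LM CD49a- NK cells. In the MFL it had 72.2, 41.3 and 41.6 CPM for NK cells and 46.2, 35.7 and 47.4 CPM for ILC1. The CD49a- subset of the LM was thus below every library of the other 3 groups. The log2 fold change between the LM subsets was 1.81 ± 0.54 (SE; edgeR, adjusted p = 0.286). Members without a call, such as Ndufv3, Ndufb10, Ndufa13, Uqcr10, Ndufaf3, Ndufaf5 and Ndufaf6 here, were chosen after their values were seen unless they are fixed representatives of a complex or isoforms.

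Ndufb10, a subunit of the membrane arm, had 136, 71.9 and 47.9 CPM in LM CD49a+ and 30.5, 5.98 and 43.7 CPM in LM CD49a- NK cells. Ndufa13, also known as GRIM-19, had 100, 109 and 50.6 CPM against 24.0, 32.9 and 51.7 CPM. The first pair of groups did not overlap and the second did. Ndufs1, the largest iron-sulfur subunit, was the 1 member lower at an unadjusted p under 0.05, with 56.5, 47.8 and 23.7 CPM against 52.5, 133 and 70.3 CPM and a log2 fold change of -0.996 ± 0.39 (SE; edgeR, adjusted p = 0.377).

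Sdhb had 75.6, 67.6 and 76.2 CPM in the CD49a+ and 27.4, 55.7 and 46.0 CPM in the CD49a- subset of the LM. It had 36.7, 39.5 and 43.4 CPM in ILC1 and 72.8, 55.5 and 38.6 CPM in NK cells of the MFL. The CD49a+ subset was thus above every library of the CD49a- subset and of ILC1, and it overlapped with MFL NK cells. The log2 fold change was 0.76 ± 0.36 against LM CD49a- NK cells and 0.88 ± 0.36 against MFL ILC1 (SE; edgeR, adjusted p = 0.428 and 0.276). Sdha, Sdhc and Sdhd overlapped between the LM subsets.

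Cox7a2 had 41.5, 13.8 and 34.1 CPM in LM CD49a+ and 1.56, 2.33 and 8.66 CPM in LM CD49a- NK cells, with no overlap (log2 fold change 2.82 ± 1.001; edgeR, adjusted p = 0.366). Uqcr10, a small subunit of complex III, had 35.6, 22.8 and 3.99 CPM in LM CD49a+ NK cells and was listed at 0, 0 and 4.49 CPM in LM CD49a- NK cells. Its groups overlapped. Of the abundant members, Atp5f1b had 373, 275 and 266 CPM in LM CD49a+ and 213, 216 and 238 CPM in LM CD49a- NK cells, which did not overlap, and Atp5pb had 125, 110 and 61.8 CPM against 12.03, 40.1 and 83.3 CPM, which did.

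**Figure D4:**
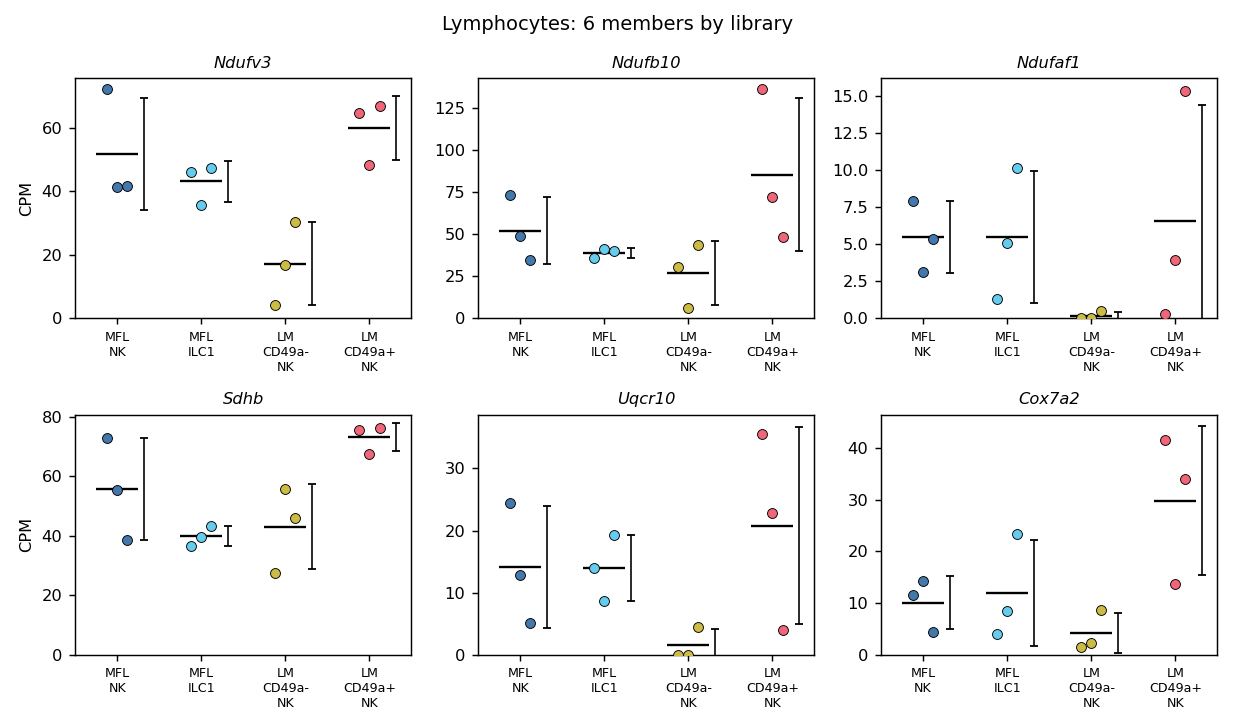
Levels in CPM of 6 members in the 12 lymphocyte libraries (points) by group; lines are means and bars ± SD (n = 3), cut at 0. LM CD49a- NK cells lie below the other groups for Ndufv3, and Sdhb in LM CD49a+ NK cells lies at 67.6 to 76.2 CPM.

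The values of the LM comparison are given here by role. The 5 F1 subunits of ATP synthase had log2 fold changes of 0.41 to 1.23, and 17 of the 18 complex V members were above 0. The 31 other subunits grouped with complex I by symbol had a median of 0.67, with 25 above 0, and the 7 core subunits a median of 0.04, with 4 above 0. The median was 1.27 for the 8 assembly factors of complex I, 0.45 for complex IV, 0.40 for complex II and 0.18 for complex III. Differences between these classes were not tested.

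Relative to MFL NK cells, the cells of the same phenotype outside the metastases, LM CD49a- NK cells had a median member log2 fold change of -0.32, against -0.09 over all genes. It was -0.12 without MFL NK library 1 and -0.05 without LM CD49a- libraries 1 and 2 together, where the median of all genes was -0.10 and -0.13. It was -0.54 without MFL NK library 3 and -0.49 without LM CD49a- library 3. 0 members were called by edgeR, where 0.0736% of all genes were, and 3 members passed an unadjusted p under 0.05, all lower (Ndufv3, Ndufaf1 and Uqcr10), where 6.72% of all genes did. DESeq2 and limma-voom called 0. Without LM CD49a- NK library 3 edgeR called 3 members lower, Cox7c, Uqcr10 and Atp5mc2, each listed at 0 in at least 1 of the 2 libraries left. In that fit 0.765% of all genes were called. 10 members were lower in every LM CD49a- library and 0 were higher, while 12% of all genes were lower and 4.27% were higher in this way.

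Those 10 of 89 members were close to the 12% share of all genes, so they do not set the members apart. Of the 10, 4 were assembly factors of complex I. The 8 assembly factors had a median log2 fold change of -1.74, with a median SE of 1.61 and 0 called by edgeR. Ndufaf1 had 7.92, 3.10 and 5.36 CPM in MFL NK cells and was listed at 0, 0 and 0.473 CPM in LM CD49a- NK cells. Ndufaf3 had 11.8, 7.30 and 4.26 CPM against 3.01, 0.111 and 1.81 CPM, Ndufaf5 had 16.6, 6.85 and 3.38 CPM against 3.12, 0.111 and 1.73 CPM, and Ndufaf6 had 6.53, 4.79 and 3.96 CPM against 0, 0 and 1.73 CPM. These are low levels, and the same libraries had 10 and 13 of the 89 members listed at 0 in LM CD49a- NK libraries 1 and 2 and 0 members in library 3. The part of detection in these values was not tested.

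LM CD49a+ NK cells relative to MFL NK cells had a median of 0.21 over the members and -0.04 over all genes, with 62 of 89 above 0. The direction rested on 1 library, since the member median was -0.08 without LM CD49a+ library 1. It was 0.05 without MFL NK library 3, 0.42 without MFL NK library 1 and 0.34 without LM CD49a+ library 3. 0 were called by edgeR, DESeq2 and limma-voom, where edgeR called 0.647% of all genes, and Ndufa6 alone passed an unadjusted p under 0.05 (9.74% of all genes did). Ndufa6 had 82.3, 60.1 and 86.1 CPM in LM CD49a+ and 47.8, 46.2 and 35.3 CPM in MFL NK cells, with no overlap. 4 members were higher and 3 lower in every LM CD49a+ library, while 7.06% and 13% of all genes were. All 11 complex IV members tested were above 0, at 0.09 to 1.57. The 5 F1 subunits of ATP synthase were all above 0, while the 7 core subunits of complex I had a median of -0.66, with 2 above 0.

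MFL ILC1 and MFL NK cells, the resident and the circulating type of the MFL, were compared next. The median was -0.17, against 0.01 over all genes, and 64 of 89 members were below 0. This direction rested on 1 library, since the median was 0.01 without MFL NK library 1. It was -0.03 without MFL ILC1 library 1, -0.02 by limma-voom, -0.36 without MFL NK library 3 and -0.39 without MFL ILC1 library 3. 0 were called by edgeR, DESeq2 and limma-voom, where edgeR called 3.06% of all genes, and 0 passed an unadjusted p under 0.05, where 8.37% of all genes did. 2 members were higher and 2 lower in every MFL ILC1 library, while 12.2% and 13.1% of all genes were. All 4 genes of complex II and all 7 core subunits of complex I had a log2 fold change below 0. The T cell markers summed to 224 to 673 CPM in MFL ILC1 and 4.41 to 12.2 CPM in MFL NK cells, and their part was not tested.

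Relative to MFL ILC1, the other CD49a+ population, LM CD49a+ NK cells had a median of 0.40 over the members, against -0.07 over all genes. It was 0.15 without LM CD49a+ library 1 and 0.27 by limma-voom, where the median of all genes was -0.10 and -0.28. 0 members were called by edgeR and DESeq2 and 1, Atp5f1a, by limma-voom, where edgeR called 3.58% and limma-voom 6.88% of all genes. 5 passed an unadjusted p under 0.05, all higher, where 14.1% of all genes did, and these were Ndufa6, Sdhb, Atp5f1a, Atp5f1b and Atp5f1d. 11 members were higher in every LM CD49a+ library and 0 were lower, while 9.33% of all genes were higher and 13.9% were lower in this way. Marker lists moved in the same libraries without overlap. The 7 hepatocyte markers summed to 11.97 to 34.3 CPM in LM CD49a+ NK cells, with 2 of them at 0, and to 103 to 128 CPM in MFL ILC1. The 3 T cell markers summed to 5.18 to 35.7 against 224 to 673 CPM. The 4 endothelial markers summed to 220 to 281 CPM, with 3 of them at 0, against 122 to 140 CPM, and the 5 classical monocyte markers to 864 to 1239 against 143 to 280 CPM. Their part in the values of the members was not tested.

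Atp5f1a had 433, 525 and 503 CPM in LM CD49a+ NK cells and 366, 342 and 347 CPM in MFL ILC1, and Atp5f1b had 373, 275 and 266 CPM against 148, 209 and 239 CPM. Neither gene overlapped, and the log2 fold changes were 0.47 ± 0.22 and 0.62 ± 0.24 (SE; edgeR, adjusted p = 0.342 and 0.243). Cycs had 94.1, 90.0 and 82.6 CPM against 69.6, 55.1 and 66.2 CPM and did not overlap either.

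The interaction was the log2 fold change of CD49a+ over CD49a- NK cells in LM minus that of ILC1 over NK cells in MFL. The member medians of these parts were 0.46 in LM and -0.17 in MFL, so a value above 0 need not mean a larger difference in LM. The CD49a+ cells were NK cells with CD49b in LM and ILC1 without it in MFL. CD49a, CD49b and cell type thus cannot be told apart in this interaction. Its median was 0.63 over the members, with 71 of 89 above 0, and 0.04 over all genes. It was 0.37 without LM CD49a- libraries 1 and 2 together. 0 were called by edgeR, DESeq2 and limma-voom, where edgeR called 1.03% of all genes. 5 members passed an unadjusted p under 0.05, all above 0 (Ndufa13, Ndufb10, Ndufv3, Sdhb and Atp5f1c), where 8.7% of all genes did. Without LM CD49a- NK library 3, edgeR called 4 (Cox7c, Ndufv3, Uqcr10 and Atp5mc2), where it called 1.78% of all genes.

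**Figure D5:**
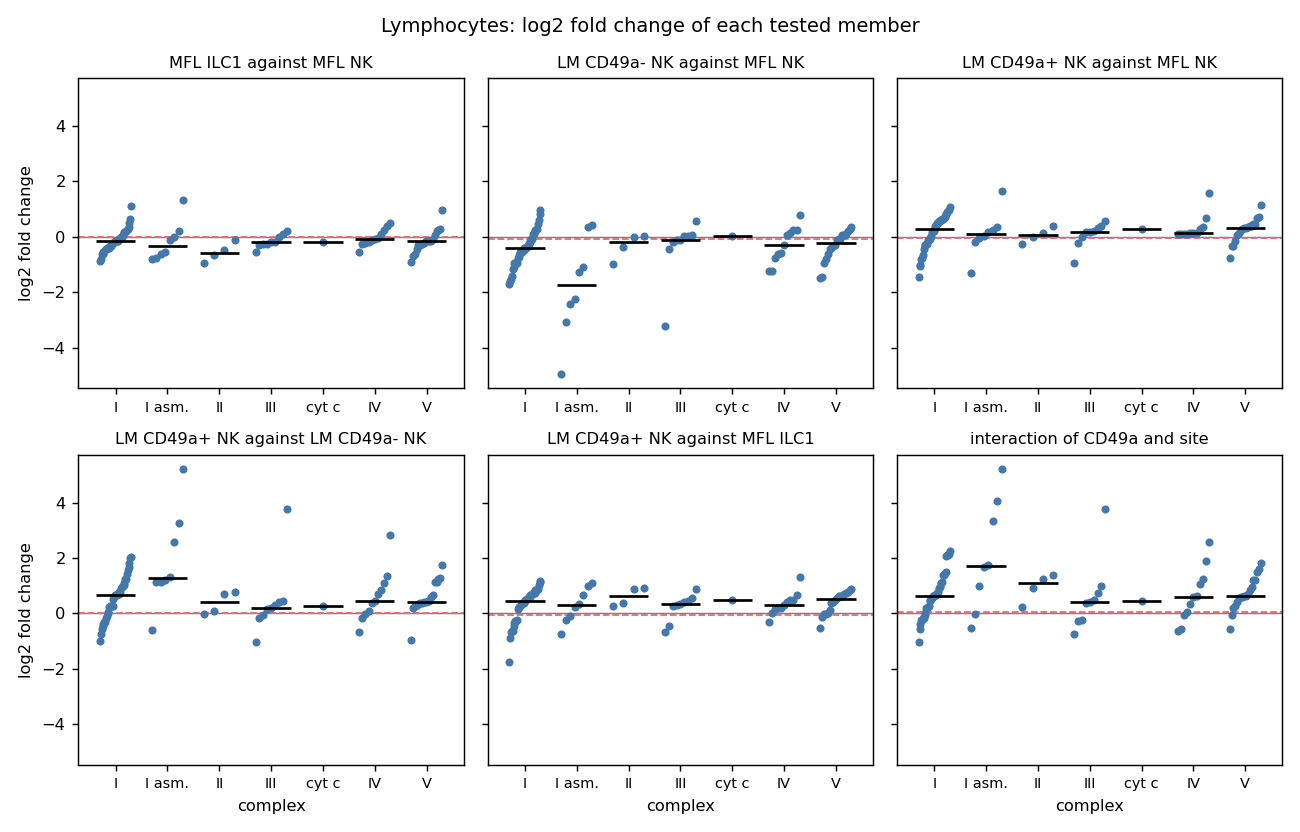
Log2 fold change of each of the 89 members tested (points) in the 6 lymphocyte comparisons (panels), by complex (x axis); black lines are medians of a complex and the red dashed line is the median of all genes tested. 0 points passed the test, and the assembly factors of complex I (I asm.) spread most widely in the panels with LM CD49a- NK cells.

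Other lists differed in the same lymphocyte libraries. The 76 cytosolic ribosomal protein genes were above 0 in 76 of 76 cases when LM CD49a+ NK cells were set against the CD49a- subset and against MFL NK cells, with medians of 0.66 and 0.72, and 0 were called by edgeR in either (29 and 32 at an unadjusted p under 0.05). At that unadjusted limit stood 11.6% and 9.74% of all genes. In these 2 comparisons 19 and 26 of the 76 were higher in every LM CD49a+ library, where 5.72% and 7.06% of all genes were. Against MFL ILC1 11 of them (14.5%) were called higher, where 3.58% of all genes were called in either direction. The 78 mitochondrial ribosomal protein genes had a median of 0.55 between the LM subsets, with 0 called by edgeR (5 higher and 2 lower at an unadjusted p under 0.05). Of the 526 short protein-coding genes tested, with transcripts under 1000 bases, 1 (0.19%) was called between the LM subsets, and their median was 0.29. The share of all genes called there was 0.14%.

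The 17 citrate cycle genes had a median of 0.31 between the LM subsets, and 1, Mdh2, was called higher in LM CD49a+ NK cells than in MFL ILC1 (log2 fold change 0.90 ± 0.26; edgeR, adjusted p = 0.0948). The 14 biogenesis regulators and the 41 other assembly genes included 0 called genes by edgeR in the 6 comparisons, with at most 1 and 3 at an unadjusted p under 0.05 in any comparison.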

How the data were processed

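Bulk RNA-seq of 12 lymphocyte and 6 MAM libraries was analysed. Per the labels and the methods of the study, the authors trimmed reads with Trim Galore (named for the lymphocytes), quantified them with Salmon (1.5.0 and 1.10.0 are listed) on GRCm39 and deposited estimated counts per gene, which the files hold as whole numbers. The MAM file lists 13759 genes, each with a total of at least 37 counts, and how it was reduced is not given in the sources used here. 0 columns of values were left unmatched to a sample.

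The counts were tested as deposited with edgeR 4.0.16 in R 4.3.3 (quasi-likelihood F-test, TMM factors, filterByExpr by group), with 1 fit for the lymphocytes and 1 for the MAMs. Benjamini-Hochberg adjustment ran over all genes tested, and an adjusted p under 0.1 was called. CPM used the TMM library sizes, and the SE is the log2 fold change divided by the square root of F, an approximation. Levels per kilobase used the length of the canonical transcript. DESeq2 1.42.0 and limma 3.58.1 (voom with sample quality weights) were alternatives. The scripts were tested on simulated data. Replicates of lymphocytes are pools, and for MAMs nothing says that the samples came from separate animals, so p-values measure the spread between these samples. Counts cover counting error only, and estimated counts of overlapping or near-identical genes are uncertain: 16 members overlap another annotated gene on the same strand.

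The named genes are, by rule, the 5 called members with the largest change in each direction, fixed representatives of each complex, isoforms, and members that did not pass the filter; others were chosen after their values were seen. Values of some members are not reported here. The members and the lists were chosen with earlier results of these data known. Same-numbered replicates deviated together with correlations of -0.094 to 0.061 in the lymphocytes and 0.013 to 0.251 in the MAMs, and no source ties the numbers to a shared sorting, so they were not taken to pair samples.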

Additional observations from a re-analysis of the deposited data

How the results depend on the processing

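Between the MAM subsets, 14 higher and 12 lower members became 8 and 7 at an adjusted p under 0.05, 21 and 6 with upper-quartile scaling (where the median of all genes was 0.10 and not 0.01), and 9 and 12 with DESeq2. Leaving out 1 library gave 6 to 19 higher and 6 to 17 lower. Between the 2 LM subsets, 0 higher members became 2 without the low-count filter and 4 with DESeq2, and 0 to 5 when 1 library was left out. The share of all genes called went from 0.14% to 0.91% without the filter and to 3.99% with DESeq2. Limma-voom gave 1 higher member in LM CD49a+ NK cells against MFL ILC1, where it called 6.88% of all genes. Leaving out 1 library gave 0 to 3 lower members in LM CD49a- NK cells against MFL NK cells and 0 to 4 higher ones in the interaction. Each left-out fit with a called lymphocyte member was the one without LM CD49a- NK library 3. More of all genes were called there too than in the main fit. Leaving out LM CD49a- NK libraries 1 and 2 together, an alternative chosen after seeing the data, gave 0 called members. The causes were not tested. Single members were followed only if called or at an unadjusted p under 0.05 in the main fit, a choice that favours a kept direction. Of their comparisons with an alternative, 732 kept direction and side of the threshold, 65 lost the call, 12 gained one and 0 reversed. Lymphocyte members had no call to lose. Among the called MAM members, 51 comparisons lost the call and 105 kept it in left-out fits. In the other settings 14 lost it and 168 kept it.

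The fit with the replicate number as a block gave 12 higher and 12 lower members between the MAM subsets, 24 of them shared with the fit without it, and 0 called members in each lymphocyte comparison. The labels do not say what the number marks. A figure legend of the study describes 3 separate sortings of pooled MFL and LM samples, as many as the libraries of each lymphocyte group. No source ties the replicate numbers to these sortings.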

Other observations

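mt-Atp6, which encodes subunit a of the proton channel, was listed at 0 counts in all 6 LM libraries. It had 130, 119 and 168 CPM in MFL NK cells and 163, 158 and 177 CPM in MFL ILC1. A listed 0 need not be a low level in these estimated counts: mt-Co2, which every respiring cell uses, was listed at 0 in all 12 lymphocyte libraries, and mt-Co3, mt-Nd3 and mt-Nd4l were listed at 0 in 2, 3 and 4 of the 6 LM libraries and in 0, 0 and 2 of the 6 MFL libraries. mt-Atp8, encoded on the same transcript, was present in the LM libraries at 8.09 to 57.0 CPM. Among the 54309 genes listed, mt-Atp6 was the 1 gene at 0 in all LM libraries with at least 100 counts in every MFL library, and 0 genes had the opposite pattern. Of the 12 mitochondrially encoded genes tested, 12 had a log2 fold change below 0 in each LM population against MFL NK cells. The medians were -0.84 for CD49a- and -0.82 for CD49a+ NK cells, and mt-Atp6 was the 1 called in each by edgeR. Only 1 of the 12 for CD49a- and 3 for CD49a+ cells were lower in every LM library than in every MFL NK library. Mitochondrially encoded genes took 1.37%, 0.680% and 0.592% of all counts in MFL NK libraries 1 to 3. Their share was 0.649%, 0.247% and 0.696% for CD49a- and 0.698%, 0.330% and 0.583% for CD49a+ cells, so the ranges overlapped. Whether the shift holds without MFL NK library 1 is not reported here. mt-Atp6 was chosen after its values were seen, and the cause was not tested.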
